A study of Mus musculus with 18 samples.

Results

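The oncostatin M receptor, gp130 and Jak-Stat3 pathway was followed in young and aged hematopoietic stem cells (HSCs) through 10 genes, Osmr, Il6st, Il6ra, Lifr, Jak1, Jak2, Stat3, Stat5a, Stat5b and Socs3. They were taken by gene symbol, and all 10 had a row among the 24421 symbols of the count table. Osmr, Stat3 and Socs3 rose with age over the 3 HSC fractions, whereas no change with age passed the threshold for gp130, the IL-6 receptor, the kinases and both Stat5 genes. The genes were chosen by their place in the pathway and with their counts in these young and aged libraries in view, among them the rise of Stat3. Their own changes with age are therefore given as a description.

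The cells came from the bone marrow of Hoxb5-tri-mCherry mice on a C57BL/6J background, a knock-in whose mCherry signal marks cells that express Hoxb5. The young animals had an age of 2 to 3 months and the aged animals of 23 to 25 months, and every group carried the reporter without any further treatment. At each age 3 fractions were sorted: LT-HSCs, the HSCs positive for Hoxb5, ST-HSCs, the HSCs negative for it, and bulk-HSCs, the immunophenotypic HSC gate without that split. Each fraction at each age had 3 libraries, 18 in all, and the split into LT-HSCs and ST-HSCs rests on the reporter in both ages.

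Oncostatin M, IL-6, leukemia inhibitory factor and their relatives signal through gp130, a receptor subunit encoded by Il6st that many cells carry. Each cytokine needs a partner that decides which cells respond, such as Osmr for oncostatin M in the mouse, Il6ra for IL-6 or Lifr for leukemia inhibitory factor. The Jak kinases bound to the receptor then phosphorylate Stat3, which enters the nucleus and turns on genes that include Socs3, an inhibitor that binds gp130 and the kinases and ends the signal. Stat5a and Stat5b carry the signals of other cytokines important to HSCs, such as thrombopoietin, and Socs2 and Cish are classical targets of Stat5. In HSCs this family is known for its roles in inflammation and in the response to injury of the marrow.

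The promoters of the 3 genes that rose are shown because the pathway is known to act on such sequence, in the case of Socs3 on its own promoter. That of Cish, a Stat5 target described with the inhibitors, is shown with them. Each is 300 bases from RefSeq (GRCm38.p6), from 250 bases before the start site to 50 after it, written 5′ to 3′ on the strand of the gene, and capitals mark the motif TTCNNNGAA, the core of the site that Stat proteins bind. The Osmr promoter was read from chr15:6874264-6874563 on the minus strand, that of Stat3 from chr11:100939491-100939790 on the minus strand, that of Socs3 from chr11:117969317-117969616 on the minus strand and that of Cish from chr9:107296409-107296708 on the plus strand.
Osmr: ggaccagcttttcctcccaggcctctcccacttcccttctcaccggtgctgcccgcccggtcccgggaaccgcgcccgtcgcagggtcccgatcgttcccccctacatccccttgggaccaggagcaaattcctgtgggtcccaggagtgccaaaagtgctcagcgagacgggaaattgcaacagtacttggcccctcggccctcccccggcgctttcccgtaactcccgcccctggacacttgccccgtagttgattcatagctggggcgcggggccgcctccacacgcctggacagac
Stat3: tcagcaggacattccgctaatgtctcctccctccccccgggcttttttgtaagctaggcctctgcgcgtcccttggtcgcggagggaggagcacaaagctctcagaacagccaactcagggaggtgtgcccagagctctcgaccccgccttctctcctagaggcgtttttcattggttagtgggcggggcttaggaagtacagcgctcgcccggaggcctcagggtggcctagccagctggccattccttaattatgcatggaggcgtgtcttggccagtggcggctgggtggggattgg
Socs3: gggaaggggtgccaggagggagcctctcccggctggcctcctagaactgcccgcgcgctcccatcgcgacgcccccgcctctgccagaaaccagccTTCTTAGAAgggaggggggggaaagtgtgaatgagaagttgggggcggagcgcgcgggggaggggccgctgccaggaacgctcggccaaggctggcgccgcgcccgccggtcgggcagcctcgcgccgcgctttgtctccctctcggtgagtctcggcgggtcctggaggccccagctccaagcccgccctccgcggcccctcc
Cish: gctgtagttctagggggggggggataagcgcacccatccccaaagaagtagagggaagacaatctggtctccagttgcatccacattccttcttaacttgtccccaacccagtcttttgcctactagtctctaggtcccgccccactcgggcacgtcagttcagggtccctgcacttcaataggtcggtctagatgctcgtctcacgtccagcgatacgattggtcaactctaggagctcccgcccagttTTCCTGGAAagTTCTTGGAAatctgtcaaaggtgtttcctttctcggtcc

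The motif, which reads the same on both strands, was present in 8.3% of the 32851 mouse promoters of this length. All 10 genes were in the RefSeq table, with 13 promoters, and 1 of the 13, that of Socs3, held the motif, as TTCTTAGAA 154 bases before the RefSeq start site. By the gene coordinates given below, which come from GENCODE, the windows of Socs3 and Osmr lie inside the genes. RefSeq and GENCODE thus place the starts of these genes differently. Cish held it at 2 places, as TTCCTGGAA and TTCTTGGAA. The windows of Cebpb, Junb and Adam10, pathway genes described below as changed with age and not printed here, held 0 matches each. A match of letters is a description of the sequence and was not tested as a bound site, and the absence of a match in the Osmr and Stat3 windows says only that these letters are not there.

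Each library held between 16495048 and 22973844 counts on genes. Values are given as CPM, counts relative to a library of fixed size after scaling with TMM factors. A floor of 3 counts, set by depth alone, corresponded to 0.132 to 0.176 CPM across libraries. Reads carried no molecular identifiers, so this limit covers counting error only. The counts came through StringTie, which assembled and quantified transcripts. A 0 is therefore a count of 0, and was not checked against the reads. Fewer genes had a count in each young library than in any aged one, with young LT-HSC replicate 2 as the exception. Well covered genes were defined by a median count of 200 or more, and of these 9653 each young library missed 1 to 163 and each aged library 2 to 6. Young LT-HSC replicate 3 and young ST-HSC replicate 3 stood apart with 163 and 160. HSC marker genes summed to between 2716 and 4034 CPM in every library. Changes were tested with edgeR's quasi-likelihood test in one fit of the 6 group means over 12808 genes whose mean reached 1 CPM, and a change passed the threshold at a Benjamini-Hochberg adjusted p under 0.05. The tests measure the spread between these libraries, since nothing in the sources used here says that the replicates of a group came from separate animals. All 18 libraries were treated as independent, also LT-HSC and ST-HSC libraries with the same replicate number. In bulk RNA of a sorted fraction, fewer cells that express a gene and less of its RNA per cell cannot be told apart. The authors found a lower ratio of ST-HSCs to LT-HSCs within the bulk-HSCs of aged mice. The part of that shift in the changes of bulk-HSCs with age was not tested.

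Of the 10 genes, 9 reached the minimum of 1 CPM and were tested, and Lifr did not. Over the mean of the 3 fractions, 3 of the 9 were higher in aged HSCs and 0 lower, where 4.34% of all tested genes were called higher and 2.4% lower. In LT-HSCs 1 of the 9, Stat3, was called, against 0.304% of all genes called higher. In ST-HSCs 1, Osmr, was called, against 0.625%, and in bulk-HSCs 1, Stat3, against 1.53%. Within LT-HSCs, and likewise within ST-HSCs, 3 of the 9 had every aged library above every young one, against 10.2% of all tested genes in either fraction, and within bulk-HSCs 4 had, with Jak2 added, against 13.4%. Osmr, Stat3 and Socs3 were the 3 genes with every aged library above every young library when all 9 libraries of one age were set against the 9 of the other, an order found for 0.929% of the tested genes. Nothing is read from these counts, since the same contrasts were known when the genes were chosen.

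Osmr, the receptor subunit that pairs with gp130 to bind oncostatin M, lies on chromosome 15 of mm10 from 6813577 to 6874969 on the minus strand. In young LT-HSCs it had 0, 4.75 and 0 CPM in replicates 1 to 3, in young ST-HSCs 0 in all 3 replicates, and in young bulk-HSCs 1.18, 0 and 0 CPM. In aged LT-HSCs it had 42.8, 31.2 and 36.1 CPM, in aged ST-HSCs 18.6, 16.7 and 18.4 CPM, and in aged bulk-HSCs 28.9, 40.2 and 24.9 CPM. Osmr thus had 0 counts in 7 of the 9 young libraries, and 97 and 21 counts in the remaining 2. Every aged library had at least 368, so that young and aged libraries did not overlap in any fraction. The young library with the most Osmr counts, LT-HSC replicate 2, was also the young library that lacked the fewest of the well covered genes, 1 of 9653. Young ST-HSC replicates 1 and 2, at 0 counts of Osmr, lacked 10 each. The part that the lower gene number of most young libraries has in the zeros was not tested.

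The mean of Osmr was 36.7 ± 5.83 CPM (SD, n = 3) in aged LT-HSCs against 1.58 ± 2.74 (SD, n = 3) in young LT-HSCs, a ratio of 23.2. In bulk-HSCs it was 31.4 ± 7.93 CPM (SD, n = 3) against 0.392 ± 0.679 (SD, n = 3), a ratio of 80.0. In ST-HSCs it was 17.9 ± 1.02 CPM (SD, n = 3) against 0 in every young library, a ratio of 120 if the young group is set to 3 counts per library. The adjusted p from edgeR was 0.0365 for ST-HSCs, 0.287 for LT-HSCs, 0.0615 for bulk-HSCs and 0.000494 for the mean over fractions. No fitted fold change is given for Osmr, because with groups at or near 0 it depends on the prior count of the fit. Those in LT-HSCs and bulk-HSCs turned on 1 library each. Without young LT-HSC replicate 2 the adjusted p in LT-HSCs was 0.0115, and without young bulk-HSC replicate 1 that in bulk-HSCs was 0.0239. In bulk-HSCs it was 0.0443 with DESeq2 and 0.0408 with no filter beyond 1 count. The call in ST-HSCs did not hold when any 1 of its 6 libraries was left out, with adjusted p between 0.0778 and 0.106.

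**Figure D1:**
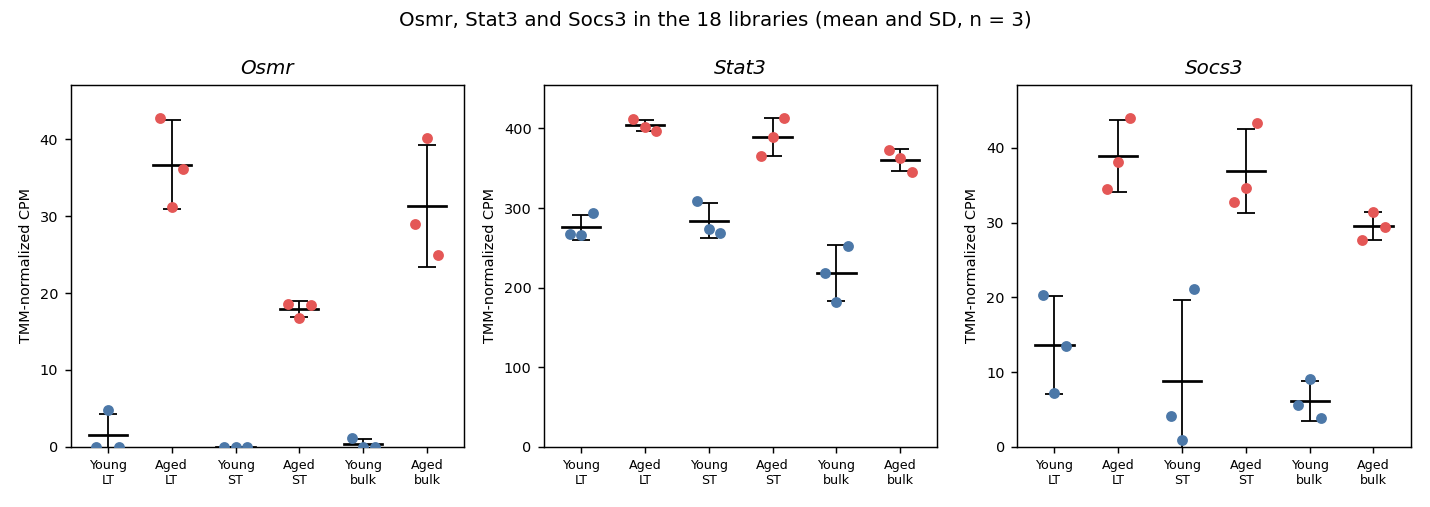
TMM-normalized CPM (linear axis from 0) of Osmr, Stat3 and Socs3 in the 18 libraries, with young libraries in blue and aged in red. Each point is 1 library, horizontal lines are group means and error bars the SD of 3 libraries, drawn down to 0 at most. In each panel the aged points lie above the young points of the same fraction, and Osmr is at or near 0 in young HSCs.

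Il6st, which encodes gp130 (chromosome 13, 112464070 to 112510086, plus strand), was present at both ages. In young HSCs it had 164, 143 and 124 CPM in LT-HSCs, 95.4, 101 and 133 CPM in ST-HSCs, and in bulk-HSCs a lowest value of 88.0 and a highest of 159 CPM. In aged HSCs all 9 libraries lay between 108 and 152 CPM, within the span of the young libraries. The log2 change with age over the mean of fractions was 0.03 (standard error 0.11, 95% interval -0.20 to 0.27, adjusted p = 0.925 from edgeR).

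Il6ra, the subunit that binds IL-6 itself (chromosome 3, 89864059 to 89913196, minus strand), was lower in level, with 20.3 ± 4.90 CPM (SD, n = 9) over the young and 16.2 ± 4.75 CPM (SD, n = 9) over the aged libraries. The young libraries ran from 12.7 to 26.8 CPM with a median of 22.5, the aged ones from 8.08 to 23.5 with a median of 15.7, and they overlapped in every fraction. Its log2 change of -0.33 (edgeR, 95% interval -0.81 to 0.16, adjusted p = 0.502) did not pass the threshold, and the interval leaves room for a fall to 0.569 of the young level. An antisense gene overlaps 281 bases of Il6ra, and reads of the pair cannot be separated without strand.

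Lifr, the subunit for leukemia inhibitory factor and the neighbour of Osmr on chromosome 15 (7090614 to 7197489, plus strand, 215644 bp away), had counts in 2 of the 18 libraries. Those were 7 counts in young LT-HSC replicate 1 and 24 counts in aged LT-HSC replicate 1, or 0.381 and 1.31 CPM, and 0 counts in each of the others. With 1 library above 0 at each age, no difference with age was detectable at this depth.

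Jak1, the kinase most used by gp130 receptors (chromosome 4, 101152367 to 101265282, minus strand), ran from 432 to 546 CPM in young and from 475 to 552 CPM in aged libraries. Its log2 change was 0.05 (standard error 0.05, 95% interval -0.06 to 0.16, adjusted p = 0.706 from edgeR), the narrowest interval of the 9 genes, which covers folds from 0.957 to 1.12. Jak2, the kinase that also serves the thrombopoietin and erythropoietin receptors (chromosome 19, 29251828 to 29313080, plus strand), ran from 122 to 243 CPM in young and from 143 to 188 CPM in aged libraries. Its log2 change over the mean of fractions was 0.01 (standard error 0.09, 95% interval -0.18 to 0.20, adjusted p = 0.975 from edgeR). In bulk-HSCs alone the 3 aged Jak2 values, 159 to 186 CPM, lay above the 3 young ones, 122 to 155 CPM, and this difference had an adjusted p of 0.527 with edgeR.

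Stat3, the factor that gp130 signals chiefly use (chromosome 11, 100885098 to 100939540, minus strand), had 268, 266 and 294 CPM in young LT-HSCs against 412, 402 and 397 CPM in aged LT-HSCs. In ST-HSCs it had 309, 274 and 268 CPM in young against 366, 389 and 413 CPM in aged mice. In bulk-HSCs it had 219, 182 and 253 CPM in young against 373, 363 and 346 CPM in aged mice. The highest young library, with 309 CPM, lay below the lowest aged library, with 346 CPM, so the ages were separate across all fractions. The spread was small beside the difference, with SDs of 7.33 to 35.3 CPM within a group.

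The log2 change of Stat3 in ST-HSCs was 0.46 (edgeR, standard error 0.11, adjusted p = 0.0619) and did not pass the threshold, while DESeq2 gave an adjusted p of 0.00355. It was 0.55 for LT-HSCs with an adjusted p of 0.0316 and 0.73 for bulk-HSCs with an adjusted p of 0.00171. Over the mean of fractions it was 0.58 (standard error 0.06, adjusted p = 1.65e-05), which is 1.49-fold with a 95% interval of 1.36 to 1.64. The call in LT-HSCs did not hold when any 1 of its 6 libraries was left out, with adjusted p between 0.0501 and 0.109, nor with library size alone (adjusted p = 0.0567) or with only the groups compared (adjusted p = 0.147). Those in bulk-HSCs and over the mean of fractions held whichever library was left out, with adjusted p of at most 0.0115 and 7.88e-05.

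Stat5a and Stat5b, close relatives of Stat3 that sit beside it on chromosome 11, overlapped between young and aged libraries in every fraction. Stat5a (100859351 to 100885169, plus strand) had 169 to 215 CPM in young and 169 to 222 CPM in aged libraries, a log2 change of 0.05 (standard error 0.07, 95% interval -0.10 to 0.19, adjusted p = 0.813 from edgeR). Stat5b (100780731 to 100850724, minus strand, 8626 bp from Stat5a) had 159 to 232 CPM in young and 189 to 263 CPM in aged libraries, a log2 change of 0.07 (standard error 0.09, 95% interval -0.12 to 0.25, adjusted p = 0.773 from edgeR). The 3′ ends of Stat3 and Stat5a overlap by 72 bases on opposite strands, and 265 windows of 100 bases were identical between Stat5a and Stat5b transcripts, 3.44% and 4.79% of their windows, so a small share of the reads could be split either way. Stat3 shared no such window with either gene.

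**Figure D2:**
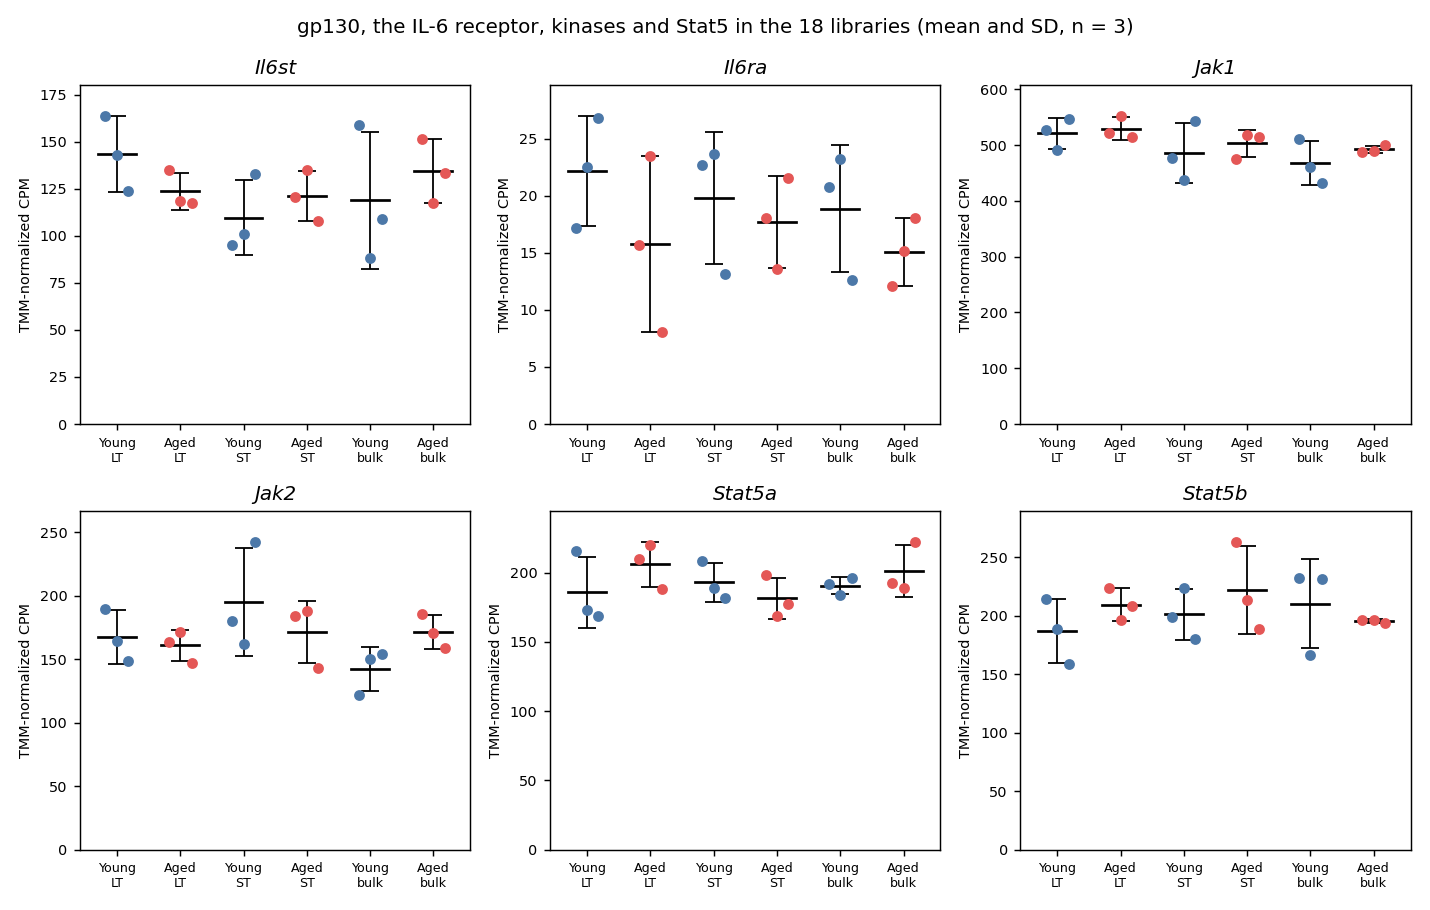
TMM-normalized CPM (linear axis from 0) of Il6st, Il6ra, Jak1, Jak2, Stat5a and Stat5b in the 18 libraries, with young libraries in blue and aged in red. Each point is 1 library, horizontal lines are group means and error bars the SD of 3 libraries. Young and aged points overlap in every fraction except for Jak2 in bulk-HSCs.

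Socs3, the inhibitor induced by Stat3, lies on chromosome 11 (117966079 to 117970047, minus strand). It had 20.3, 7.15 and 13.5 CPM in young LT-HSCs against 34.5, 38.1 and 44.0 CPM in aged LT-HSCs. In ST-HSCs it had 4.11, 0.952 and 21.2 CPM in young against 32.8, 34.6 and 43.3 CPM in aged mice. In bulk-HSCs it had 5.54, 9.03 and 3.78 CPM in young against 27.6, 31.4 and 29.4 CPM in aged mice. All 9 aged libraries lay above all 9 young ones, and the young values were the more scattered, from 0.952 to 21.2 CPM against 27.6 to 44.0.

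The log2 change of Socs3 was 1.51 in LT-HSCs (standard error 0.68, adjusted p = 0.531 from edgeR), 2.08 in ST-HSCs (standard error 0.69, adjusted p = 0.216) and 2.27 in bulk-HSCs (standard error 0.70, adjusted p = 0.117), so with edgeR it passed the threshold in no single fraction. With DESeq2 the adjusted p was 0.0265 in ST-HSCs and 0.00732 in bulk-HSCs, and with only the groups compared it was 0.0446 in bulk-HSCs. Over the mean of fractions it was 1.95 (standard error 0.40, adjusted p = 0.00515), with a 95% interval of 2.17-fold to 6.90-fold, and that call held whichever of the 18 libraries was left out. The highest young ST-HSC value came from replicate 3, one of the 2 young libraries poor in genes. Without that library the log2 change in ST-HSCs was 3.87 with an adjusted p of 0.00442. With both such libraries left out, the genes of the pathway called were 1 in LT-HSCs, 2 in ST-HSCs, where Socs3 joined Osmr, and 3 over the mean of fractions.

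**Figure D3:**
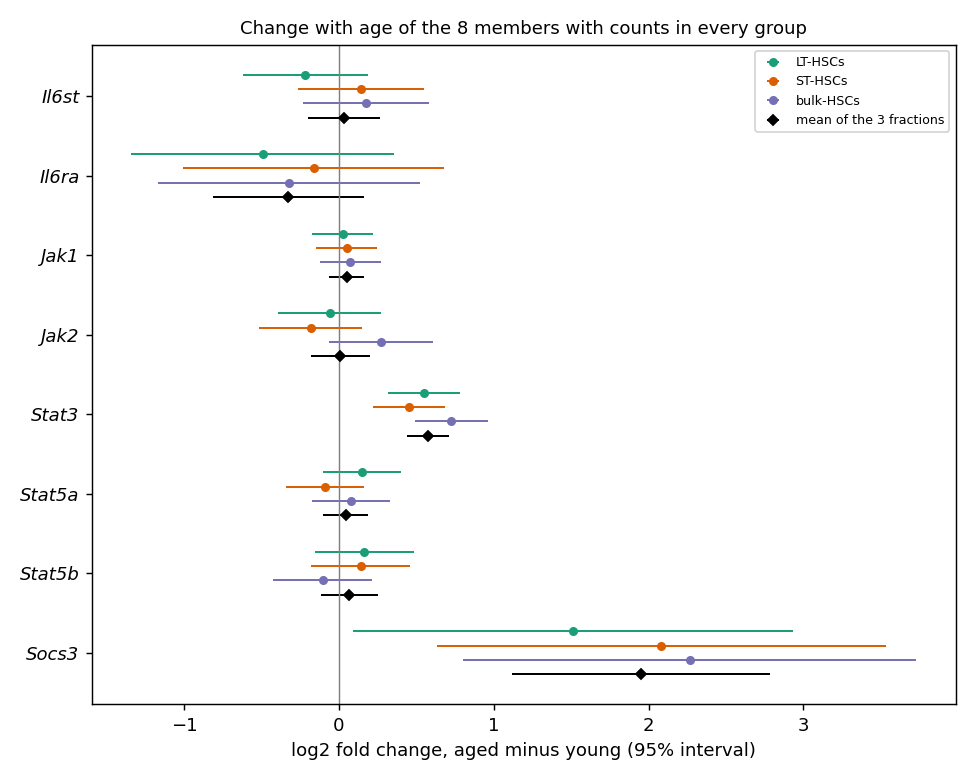
Log2 fold change from young to aged HSCs (points) with 95% intervals (lines) for the 8 tested genes other than Osmr, by fraction and as the mean of the 3 fractions. Osmr is left out because 1 group was at 0 counts. The intervals of Stat3 and Socs3 lie above 0 in each fraction before adjustment, while those of the other 6 genes cross 0.

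The order of the levels can be compared between genes only per length of transcript, as CPM per kilobase of exon. In young HSCs the mean levels were 68.0 for Jak1, 36.0 for Stat5b, 33.5 for Jak2, 27.2 for Stat3, 26.6 for Stat5a and 11.2 for Il6st, all in CPM per kilobase. Below these came Socs3 with 3.29, Il6ra with 2.35, Osmr with 0.0544 and Lifr with 0.00393 CPM per kilobase. In aged HSCs Stat3, with 40.4 CPM per kilobase, stood next to Jak1, with 70.3, and ahead of Stat5b, with 37.7, and of Jak2, with 33.4. Socs3 had 12.1 CPM per kilobase, close to Il6st with 11.4, and Osmr had 2.37, close to Il6ra with 1.87. These neighbours were not tested against each other. In aged HSCs gp130 RNA was thus the more abundant of the oncostatin M receptor pair on this scale.

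The same genes were compared between LT-HSCs and ST-HSCs, a contrast on the reporter fraction and not on age. With edgeR 0 of the 9 tested genes were called in young mice, where 0.429% of all genes were called, and 0 of the 9 in aged mice, where 0.00781% were. Before adjustment 1 gene had a p under 0.05 in young mice, Osmr, and 0 in aged mice, and DESeq2 called the same 1 and 0. Over all 12808 tested genes these counts were 1333 and 437 before adjustment, and 387 and 55 with DESeq2. The young difference in Osmr rests on the 97 counts in LT-HSC replicate 2, the one library of the 6 with a count on it. In aged mice the 3 LT-HSC values of Osmr, 31.2 to 42.8 CPM, lay above the 3 ST-HSC values, 16.7 to 18.6 CPM, with a ratio of means of 2.05 (log2 difference 1.04, standard error 1.27, 95% interval -1.66 to 3.73, adjusted p = 1 from edgeR). That fit shares one estimate of the spread of Osmr over all 6 groups, young ones included. With only both aged groups fitted, the adjusted p of Osmr was 0.187.

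For Stat3 the log2 difference of LT-HSCs from ST-HSCs was -0.04 in young (95% interval -0.28 to 0.19) and 0.05 in aged mice (95% interval -0.18 to 0.28). For Il6st it was 0.39 in young (95% interval -0.02 to 0.79, adjusted p = 0.501 from edgeR) and 0.03 in aged mice (95% interval -0.38 to 0.43). For Socs3 it was 0.64 in young (95% interval -0.76 to 2.05) and 0.08 in aged mice (95% interval -1.31 to 1.46). The fractions overlapped for each of these genes at both ages.

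Whether the change with age differed between fractions was tested as an interaction. With edgeR 0 of the 9 genes were called for LT-HSCs against ST-HSCs, where 0% of all genes were called, 0 for LT-HSCs against bulk-HSCs, where 0.00781% were, and 0 for ST-HSCs against bulk-HSCs, where 0.0625% were. Before adjustment 1, 0 and 0 genes had a p under 0.05, the 1 being Osmr, and DESeq2 called 1, 0 and 1, Osmr in both cases. Over all 12808 tested genes the counts were 502, 746 and 740 before adjustment, and 83, 122 and 128 with DESeq2. The difference of the Stat3 change between LT-HSCs and ST-HSCs was 0.09 on the log2 scale (95% interval -0.23 to 0.42), between LT-HSCs and bulk-HSCs -0.18 (95% interval -0.50 to 0.15) and between ST-HSCs and bulk-HSCs -0.27 (95% interval -0.60 to 0.06). The calls of Stat3 in LT-HSCs and bulk-HSCs and its miss in ST-HSCs are therefore not shown to be different effects.

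Other genes of the pathway were taken from lists written for the purpose. Of 11 ligands of the family, 5 passed the expression minimum, 0 were higher and 1 was lower over the mean of fractions, where 4.34% of all tested genes were higher and 2.4% lower, with a median log2 change of 0.18 against 0.04 over all tested genes. Ebi3, a subunit of IL-27 and IL-35, fell from a median of 42.2 CPM (lowest 21.4, highest 63.6) in young to 12.5 CPM (lowest 3.13, highest 24.3) in aged libraries. Its aged values lay below its young ones in each fraction, with a log2 change of -1.66 (edgeR, standard error 0.32, adjusted p = 0.00365). Osm, the ligand of Osmr itself, was at 0 to 9.15 CPM in young and 0 to 5.32 CPM in aged libraries, and its log2 change of -0.29 had an interval of -2.35 to 1.76. Clcf1, a ligand of the ciliary neurotrophic factor receptor, had a log2 change of 0.18 (adjusted p = 0.766), Ctf1, cardiotrophin 1, one of 0.47 (adjusted p = 0.815), and Il6 was at 0 counts in every library.

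Of 5 further receptors of the family, 3 passed the minimum and 0 were called in either direction with edgeR or DESeq2 (1 at an unadjusted p under 0.05), with a median log2 change of 0.29 against 0.04. Over the mean of fractions, 2519 of all 12808 tested genes had an unadjusted p under 0.05, 864 were called with edgeR and 1494 with DESeq2. Il27ra, which pairs with gp130 to bind IL-27, had a log2 change of 0.29 (95% interval 0.02 to 0.56, adjusted p = 0.208) and Il11ra1, the IL-11 receptor, one of -0.25 (95% interval -0.52 to 0.02, adjusted p = 0.294). Its close copy Il11ra2 had 0 to 11.1 CPM in young and 0 to 5.82 CPM in aged libraries (95% interval -2.26 to 3.18). Cntfr, the ciliary neurotrophic factor receptor, was at 0 counts in every library. Of the other Jak and Stat genes all 6 were tested and 0 were called with edgeR or DESeq2 (1 at an unadjusted p under 0.05), with a median of -0.02. The closest were Jak3, the kinase of the common gamma chain, with 0.25 (95% interval 0.06 to 0.44, adjusted p = 0.121), and Stat2, which carries interferon signals, with -0.24 (adjusted p = 0.299). Of the 2 proteases that shed receptors of this family, Adam10 rose from a median of 293 CPM (lowest 273, highest 367) to 379 CPM (lowest 338, highest 399), by 0.28 on the log2 scale (edgeR, standard error 0.06, adjusted p = 0.00970). Its young and aged values overlapped in ST-HSCs. Adam17 had a log2 change of 0.20 (95% interval -0.27 to 0.66, adjusted p = 0.715).

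Among 16 other inhibitors of the pathway, all tested, 0 were higher and 2 were lower over the mean of fractions, beside 4.34% and 2.4% of all tested genes, with a median log2 change of -0.02 against 0.04 over all genes. Socs2, which restrains growth hormone and other Stat5 signals, fell from a median of 35.8 CPM (lowest 6.60, highest 76.3) in young to 8.94 CPM (lowest 2.75, highest 15.9) in aged libraries. Its log2 change was -2.03 (standard error 0.40, adjusted p = 0.00391 from edgeR), and the aged values lay below the young ones in LT-HSCs and ST-HSCs but overlapped in bulk-HSCs. Cish, which restrains cytokine receptors that use Stat5 and whose promoter is printed above with 2 motifs, fell from a median of 137 CPM (lowest 73.6, highest 185) to 50.4 CPM (lowest 29.5, highest 146). Its log2 change was -1.13 (standard error 0.23, adjusted p = 0.00562), and the change within bulk-HSCs alone was -1.67 (standard error 0.41, adjusted p = 0.0393). Young and aged values of Cish were separate in bulk-HSCs and overlapped in LT-HSCs and ST-HSCs. Thus Socs2 and Cish were lower while Socs3 was higher in aged HSCs. The next smallest p belonged to Socs5, with -0.29 (adjusted p = 0.132).

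Of 18 genes listed as targets of Stat3, 16 were tested, of which 3 were higher and 0 lower over the mean of fractions, beside 4.34% and 2.4% of all tested genes, with a median log2 change of 0.29 against 0.04 over all tested genes. Cebpb, a factor of emergency granulopoiesis, rose from a median of 7.70 CPM (lowest 0.981, highest 20.9) in young to 24.6 CPM (lowest 17.97, highest 40.5) in aged libraries. Its log2 change was 1.90 (standard error 0.28, adjusted p = 0.000291 from edgeR), and the ages were separate in ST-HSCs and bulk-HSCs but overlapped in LT-HSCs. Junb, a subunit of AP-1 that restrains the growth of HSCs, rose from a median of 55.5 CPM (lowest 34.3, highest 77.9) to 94.0 CPM (lowest 67.4, highest 157), with the ages separate in each fraction and a log2 change of 0.92 (standard error 0.19, adjusted p = 0.00495). Ccnd1, which encodes the G1 cyclin D1, rose from a median of 82.7 CPM (lowest 47.4, highest 112) to 130 CPM (lowest 81.9, highest 184), a log2 change of 0.69 (standard error 0.12, adjusted p = 0.00173). Its young and aged values were separate in bulk-HSCs and overlapped in LT-HSCs and ST-HSCs.

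Cebpb and Ccnd1 were also called in bulk-HSCs alone, where 1.53% of all tested genes were called higher. Their log2 changes were 3.32 (adjusted p = 0.00176 from edgeR) and 1.01 (adjusted p = 0.0185). In LT-HSCs or ST-HSCs alone 0 targets were called. There 2 and 4 of the 16 had an unadjusted p under 0.05, beside 1129 and 1238 of all 12808 tested genes. DESeq2 called 0 and 3 of the targets, beside 290 and 448 of all genes. Over the mean of fractions DESeq2 called 7 of the 16 targets, beside 1494 of the 12808 genes. Bcl3 had a log2 change of 0.92 over the mean of fractions (adjusted p = 0.0551), Bcl6 1.72 (adjusted p = 0.0728) and the kinase gene Pim1 0.36 (adjusted p = 0.0813). Timp1 and Lrg1 were at 0 counts in every library. Targets of Stat3 in this list are also induced by other factors, and the list is described by its counts only. These counts have no further test.

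**Figure D4:**
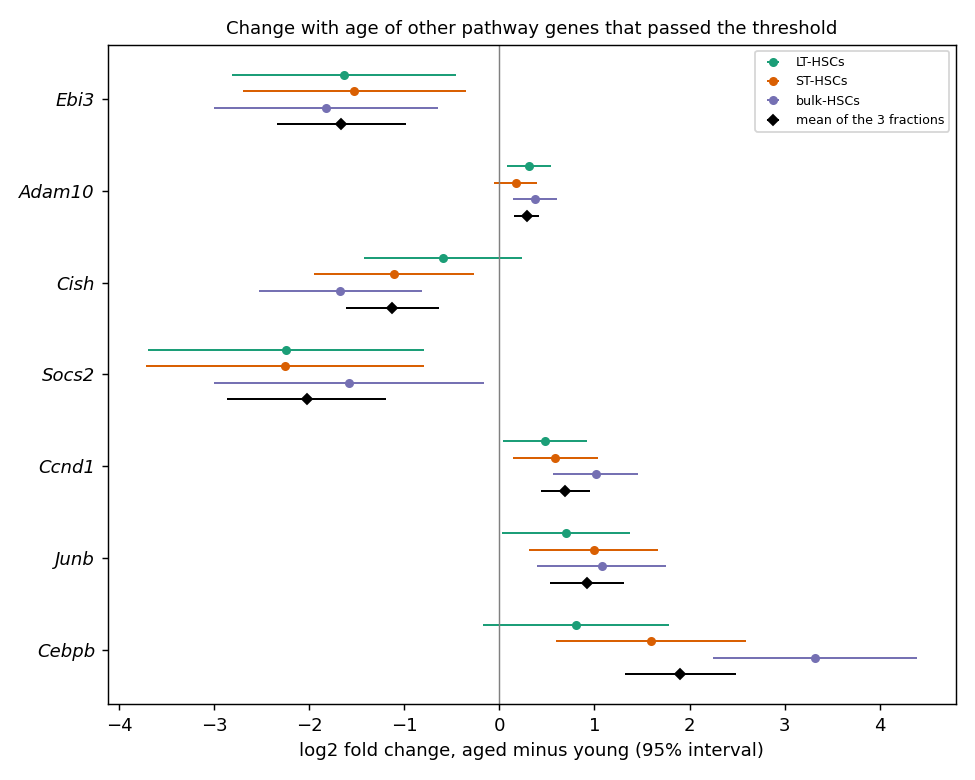
Log2 fold change from young to aged HSCs (points) with 95% intervals (lines) for the 7 further pathway genes that passed the threshold in any comparison with age, by fraction and as the mean of the 3 fractions. The points of Ebi3, Cish and Socs2 lie below 0 and those of Adam10, Ccnd1, Junb and Cebpb above it.

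The genes whose levels followed Osmr most closely over the 18 libraries, by Pearson's r of log2(CPM + 1) among 9703 other genes with a mean of at least 10 CPM, were Tdrd9 (r = 0.955), Rgs18 (r = 0.936) and Matn4 (r = 0.932). Tdrd9 had a mean of 0.926 CPM in young and 26.6 CPM in aged libraries and Matn4 2.11 and 28.9 CPM, much as Osmr with 0.658 and 28.7 CPM, whereas Rgs18 had 134 and 222 CPM. Within the 9 aged libraries r with Osmr was 0.607 for Tdrd9, 0.133 for Rgs18 and 0.853 for Matn4. Within the 9 young libraries, 7 of them at 0 counts of Osmr, it was 0.508, 0.461 and 0.669. Those closest to Stat3 were Myh9 (r = 0.915), Tmem2 (r = 0.900) and C4b (r = 0.897). Their r with Stat3 was 0.758, 0.728 and 0.437 within the young and 0.341, 0.034 and 0.581 within the aged libraries. All of these genes were read from the same 18 libraries of 2 ages, so the values are a description.

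Markers of other cells were read beside these results, because Osmr and Socs3 are also expressed by cells outside the HSC gate. T and NK cell markers summed to 0.227 to 26.3 CPM in young and 22.6 to 137 CPM in aged libraries, with Cd3e and Cd8a at 0 counts in all 18. Klrb1c, the gene of NK1.1, had 0.227 to 25.7 CPM in young and 19.0 to 136 CPM in aged libraries. Klrb1c rose with age (log2 change 3.44, standard error 0.45, adjusted p = 8.83e-05 from edgeR). Nkg7, the other tested gene of this list, went the other way, from a mean of 4.70 CPM in young to 3.44 CPM in aged libraries. Endothelial markers summed to 0 to 45.2 CPM in young and 18.2 to 55.2 CPM in aged libraries. Cdh5, which marks endothelium, was at 0 in all 18. Flt4 was called higher (adjusted p = 0.0410 from edgeR). It had means of 0.754 CPM in young libraries, 5 of the 9 at 0 counts, and 3.24 CPM in aged ones. Kdr had the largest part in the endothelial sum, with a mean of 12.86 CPM in young and 27.25 CPM in aged libraries. Its mean was 38.4 CPM in aged LT-HSCs and 15.3 CPM in aged ST-HSCs. In aged mice both sums were higher in LT-HSCs than in ST-HSCs, 61.4 to 137 against 22.6 to 45.4 CPM and 36.4 to 55.2 against 18.2 to 21.3 CPM, as Osmr was. For T and NK cell markers that order was the one of Klrb1c, with means of 101 and 32.0 CPM. Nkg7 had means of 1.20 CPM in aged LT-HSCs and 4.51 CPM in aged ST-HSCs. Stromal markers summed to 2.38 to 27.7 CPM in young and 7.67 to 27.5 CPM in aged libraries, with Col1a1 and Col3a1 at 0 in all 18. The part of such cells in the change of Osmr, Socs3 or the targets was not tested.

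Neutrophil and monocyte markers summed to 149 to 277 CPM in young and 226 to 315 CPM in aged libraries, with Prtn3 called higher and with Mpo, Ctsg and Ms4a3 at 0 in all 18. Of the 5 tested, 3 had a positive log2 change over the mean of fractions. Prtn3 went from a mean of 76.7 CPM in young to 142 CPM in aged libraries, but Lyz2 from 128 to 114 CPM and S100a9 from 1.825 to 1.193 CPM. Megakaryocyte markers summed to 67.5 to 153 and 104 to 175 CPM, B cell markers to 10.6 to 29.2 and 12.9 to 26.1 CPM, and erythroid markers to 0 to 135 and 0.529 to 44.8 CPM in young and aged libraries. Of the erythroid markers Car1 was called lower in bulk-HSCs, with 30.2 to 129 CPM in young and 0 to 0.441 CPM in aged libraries (edgeR, adjusted p = 0.0262), and its part in the bulk-HSC results was not tested. Of the 7 HSC markers, 2, Slamf1 and Procr, were called higher over the mean of fractions, beside 4.34% of all tested genes, and 0 lower. In LT-HSCs 0 of the 7 were called. Over the mean of fractions 4 of the 7 had a positive log2 change. The means of Hlf went from 1184 CPM in young to 956 CPM in aged libraries, those of Ly6a from 90.4 to 86.8 CPM and those of Fgd5 from 177.4 to 174.3 CPM.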

How the data were processed

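The authors depleted rRNA, mapped the read pairs on mm10 (HISAT2 2.1.0), ran StringTie 1.3.4d and deposited whole-number counts per gene symbol, without normalization. The annotation is not given in the sources used here. No library was left out, and groups came from the sample descriptions. Counts were analysed with edgeR 4.0.16 in R 4.3.3 (TMM factors, one quasi-likelihood fit of 6 group means, 12808 genes with a mean of at least 1 CPM, Benjamini-Hochberg adjusted p under 0.05), with DESeq2 1.42.0 as an alternative. Python 3.11.15 made the tables and figures. Fits were tested on simulated data. Coordinates and exon lengths came from GENCODE M21 and promoters from RefSeq (GRCm38.p6).

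The genes, lists and comparisons were chosen with earlier results of these data known. Named are the 10 genes, list genes called in a comparison with age, up to 3 per pathway list with the smallest p for the mean over fractions, and the 3 genes most like Osmr and Stat3. One gene that this rule names is not reported here, and Osm, Bcl3, Bcl6 and Pim1 fall outside it, having been chosen with their values already seen. Genes at 0 counts and marker genes are named where their list is described. Alternatives were RLE size factors, library size alone, no filter beyond 1 count, only the groups compared, DESeq2, the replicate block, each library left out and, chosen after seeing the data, both young libraries poor in genes left out.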

Additional observations from a re-analysis of the deposited data

How the results depend on the processing

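The calls of Osmr, Stat3 and Socs3 over the mean of fractions held in every alternative run, and with each of the 18 libraries left out in turn (3 called throughout). Within fractions they were less stable. In LT-HSCs 0 of the 9 genes were called with library size alone or with only the groups compared, and 0 to 1 with a library left out. In ST-HSCs 3 were called with DESeq2, 2 without both young libraries poor in genes, 0 with the replicate block and 0 to 1 with a library left out. In bulk-HSCs 3 were called with DESeq2, 2 with no filter and 2 with only the groups compared, and 1 to 2 with a library left out. DESeq2 called 1 for LT-HSCs against ST-HSCs in young mice and 1 each for the age effect of LT-HSCs and of bulk-HSCs against ST-HSCs, each time Osmr, where a group at 0 counts enters. The cause of these moves was not tested.

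Whether equal replicate numbers mark the same animals is not given in the sources used here. Over 45 same-numbered pairs, young with aged included, deviations correlated at -0.0491 to 0.124, and 11 of 18 libraries correlated best with their own number. LT-HSC and ST-HSC libraries of equal age and number correlated at 0.0175, 0.124 and 0.0932 in young and 0.0512, 0.0549 and 0.0946 in aged mice. With unequal numbers they correlated at -0.111 to 0.0281 and -0.0572 to 0.00537. A shared source of such libraries was not tested, and the fit without the block treated all 18 libraries as independent. With the replicate block Osmr in ST-HSCs had an adjusted p of 0.0554. It left 0 genes with a different age effect in LT-HSCs or ST-HSCs than in bulk-HSCs (1 and 8 without it).

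Over all tested genes, edgeR called 57 with age in LT-HSCs, 109 for ST-HSCs, 253 for bulk-HSCs and 864 over the mean of fractions. DESeq2 called 290, 448, 741 and 1494, and a fit of only the groups compared 9, 27 and 139 in the 3 fractions. With a library left out the counts were 15 to 182, 45 to 120, 114 to 237 and 659 to 1051. For LT-HSCs against ST-HSCs in young mice the count of 55 became 387 with DESeq2, 5 with only the groups compared, 30 without both libraries poor in genes and 35 to 127 with one left out. In aged mice the count of 1 became 55, 3 with only the groups compared, 2 with no filter and 0 to 2 with one left out. For the age effects, LT-HSCs against ST-HSCs went from 0 to 83 with DESeq2 and 0 to 11 with a library left out. LT-HSCs against bulk-HSCs went from 1 to 122, 0 with only the groups compared, 7 without both libraries and 0 to 20, and ST-HSCs against bulk-HSCs from 8 to 128, 2 with library size alone, 3 with no filter, 0 with only the groups compared and 0 to 24. The share of called genes that were higher moved with library size alone from 77.5% to 66.7% in bulk-HSCs and from 64.4% to 55.4% over the mean of fractions, and in LT-HSCs from 68.4% to 55.8% with the replicate block.

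Signs turned only for changes near 0 that passed no threshold. With library size alone the log2 change of Jak1 in LT-HSCs was -0.013 and the difference of Stat3 between young LT-HSCs and ST-HSCs 0.00045. The Jak2 mean change was -0.00405 with DESeq2, -0.00419 with RLE size factors and -0.015 with library size alone. Without both young libraries poor in genes Jak2 changed by 0.013 in ST-HSCs, and LT-HSCs differed from ST-HSCs in young mice by 0.053 for Jak2 and -0.22 for Il6ra. With a library left out, the ranges that crossed 0 were, for the change with age, -0.034 to 0.059 for Jak1 and -0.14 to 0.042 for Jak2 in LT-HSCs, -0.020 to 0.14 for Jak1 and -0.299 to 0.010 for Jak2 in ST-HSCs, -0.0011 to 0.12 for Stat5a in bulk-HSCs, and -0.024 to 0.12 for Il6st and -0.028 to 0.073 for Jak2 over the mean. For LT-HSCs against ST-HSCs in young mice they were -0.055 to 0.31 for Il6ra, -0.091 to 0.023 for Stat3, -0.17 to 0.011 for Stat5a and -0.21 to 0.00069 for Stat5b. In aged mice they were -0.049 to 0.11 for Il6st, -0.57 to 0.15 for Il6ra, -0.19 to 0.058 for Stat5b and -0.022 to 0.21 for Socs3.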
